A study of Mus musculus with 64 samples.

Results

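Collagens are the structural proteins of the extracellular matrix, and the mouse genes that encode their chains carry symbols made of Col, a number, the letter a and a number. All genes with such a symbol were taken, which gave 42 of the 19503 genes measured, each with 1 probeset, in 8 classes. The classes hold 11 fibrillar chains, 6 chains of basement membrane collagen IV, 6 collagen VI chains, 8 fibril-associated chains, 3 short-chain network chains, 4 transmembrane chains, 2 multiplexins and 2 others. Col7a1 and Col12a1 were not analysed here. A collagen molecule is made of 3 chains, which can be products of 1 gene or of several, wound into a triple helix in the endoplasmic reticulum before secretion. Fibrillar collagens give the wall of the gut its tensile strength, collagen IV forms the sheet under epithelium, endothelium and around muscle cells, and collagen VI forms fine filaments between cells and fibrils. In the colon they are made mainly by fibroblasts, smooth muscle cells and endothelial cells, with some chains made by the epithelium.

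The proximal colon of male mice aged 29 weeks was profiled on 64 Clariom S arrays, 1 array for each of 32 inbred strains and each diet. The strains were C57BL/6J, DBA/2J and 30 BXD strains, which are recombinant inbred lines bred from crosses of those parental strains. All mice ate chow (CD, 18% of calories from fat and 58% from carbohydrate) until 8 weeks, after which one set stayed on CD and the other ate a high-fat diet (HFD, 60.3% of calories from fat and 21.4% from carbohydrate) for 21 weeks. Per the methods, the mice fasted during the day and then ate their own diet again for some hours before they were killed. Each array held RNA pooled from about 5 mice, so that the spread between mice of a strain was not measured and the replicates of a diet are its 32 strains. The HFD also held less carbohydrate than the CD, so that fat and carbohydrate cannot be told apart. Per the study, other differences between the diets, such as that in fibre, may contribute as well.

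The values are log2 intensities from which the collagen levels of different genes cannot be set against each other, since probesets differ in how brightly they respond. The medians of the 64 arrays lay between 6.54 and 6.77, and the goblet cell mucin Muc2 was at least 19.88 and the smooth muscle myosin Myh11 at least 13.84 on every array, so that epithelium and muscle were both in the samples. In 4 arrays (BXD48a CD, BXD39 HFD, BXD49 HFD and BXD69 HFD) the Paneth cell defensin Defa24, a gene of the small intestine, lay between 15.77 and 19.57 against at most 9.76 elsewhere. BXD49 HFD and BXD81 CD stood apart from the other arrays of their diet, with median correlations to them at -9.90 and -5.80 median absolute deviations from the middle of their own diet, and BXD48a CD followed at -3.84. For 50 genes chosen for their high agreement between diets over the BXD strains, the CD array resembled its own HFD array most in 27 of 30 BXD strains, but not in BXD87, BXD89, BXD90 or the parental strains. The genes were chosen on these same BXD arrays and without the parental arrays, so that the 27 of 30 is not an independent check of labels. The array labelled DBA/2J CD correlated at 0.93 with that labelled C57BL/6J HFD and at -0.65 with that labelled DBA/2J HFD, so that parental values are given as the values of the arrays so labelled. Of the 42 collagen genes, 20 were in the upper 60% of genes by mean intensity, and no filter on low values was applied.

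The sequence upstream of the genes on which the results turn is shown because it lets their start regions be compared. The windows are the 250 bases before an annotated start in RefSeq on GRCm38.p6, written along the strand of the gene. Capitals mark 3 promoter motifs, searched on both strands: the TATA box with the letters TATAAA, the box named for its letters CCAAT, and the GC box with the letters GGGCGG. A motif on the other strand appears as its reverse complement, and no match overlaps another here. Col18a1 is the gene that differed between the diets, and Col1a2, Col3a1 and Col6a2 are 3 of the genes that differed between strains. They lie at chr10:77166531-77166780 (minus strand), chr6:4505368-4505617 (plus strand), chr1:45311288-45311537 (plus strand) and chr10:76623631-76623880 (minus strand).
Col18a1: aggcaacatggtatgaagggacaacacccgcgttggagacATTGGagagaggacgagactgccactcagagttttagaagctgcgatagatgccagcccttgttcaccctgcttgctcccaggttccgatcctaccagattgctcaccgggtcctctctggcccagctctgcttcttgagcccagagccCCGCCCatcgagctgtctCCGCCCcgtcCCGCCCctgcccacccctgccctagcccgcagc
Col1a2: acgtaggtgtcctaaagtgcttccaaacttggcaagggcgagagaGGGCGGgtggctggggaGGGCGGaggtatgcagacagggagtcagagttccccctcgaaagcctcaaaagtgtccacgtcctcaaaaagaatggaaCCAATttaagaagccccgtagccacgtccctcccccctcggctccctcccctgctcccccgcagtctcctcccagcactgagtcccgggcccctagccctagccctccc
Col3a1: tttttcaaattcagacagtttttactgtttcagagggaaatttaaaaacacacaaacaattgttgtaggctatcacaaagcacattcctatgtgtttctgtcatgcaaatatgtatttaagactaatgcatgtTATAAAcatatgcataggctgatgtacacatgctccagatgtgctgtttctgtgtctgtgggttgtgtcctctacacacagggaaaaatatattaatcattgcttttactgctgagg
Col6a2: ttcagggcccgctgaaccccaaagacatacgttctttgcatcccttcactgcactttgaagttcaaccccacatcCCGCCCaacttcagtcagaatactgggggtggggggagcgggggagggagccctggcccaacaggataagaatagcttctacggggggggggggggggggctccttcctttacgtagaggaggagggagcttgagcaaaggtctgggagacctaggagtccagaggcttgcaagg
The Col18a1 window held 3 GC boxes and 1 CCAAT in 62.0% G and C, while the window of its second annotated start (chr10:77113706-77113955) held none of the 3 motifs. The Col1a2 window held 2 GC boxes and 1 CCAAT, the Col3a1 window 1 TATAAA in 35.2% G and C, and the Col6a2 window, which belongs to the more upstream of its starts, 1 GC box in 59.2% G and C. The median over all windows was 52.4% G and C. Among 37 collagen windows of 34 genes, 21 held a GC box (56.8%, against 32.7% of all 32851 windows), 12 held CCAAT (32.4% against 33.8%) and 5 held TATAAA (13.5% against 12.4%). A match describes letters in a window and not a site bound by a factor. Col4a1 and Col4a2, whose products wind together, start 21 bases apart on opposite strands of chromosome 8, and their spans overlap. Col4a5 and Col4a6 start 1343 bases apart on opposite strands of chromosome X. The spans of Col4a3 and Col4a4 on chromosome 1 overlap by 114 bases.

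The first comparison asked which collagens differed between HFD and CD. Col18a1, which encodes the chain of the basement membrane collagen XVIII and holds the endostatin domain at its end, rose on HFD, and no other collagen gene passed the adjusted test. In the limma fit over all genes 1 of 42 collagens was higher (0.743% of all genes were called higher) and 0 of 42 were lower (1.44% of all genes were called lower), against 2.18% of all genes called in either direction. At an unadjusted p under 0.05, limma gave 9 collagens, against 13.6% of all genes called in either direction at that p, and all 9 were higher on HFD while 0 were lower. The share of all genes higher at that p was not counted. Col1a1, Col1a2 and Col3a1, which are among the 9, correlated with each other as given below, so that the 9 are not independent. Of the 42 differences 30 were above 0, beside 9885 of all 19503 genes. The median was 0.06 on the log2 scale, against 0.00 over all genes.

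Under CD the log2 intensity of Col18a1 ran from 6.40 through a median of 6.98 to 7.57, and under HFD from 6.47 through 7.45 to 8.00. The groups overlapped, but most HFD arrays lay above the CD median. The mean went from 7.01 ± 0.32 to 7.42 ± 0.36 (SD, n = 32 each), a difference of 0.41 (SE 0.086, adjusted p = 0.00241 by limma over all genes), or 1.32-fold, and the level was higher on HFD in 27 of 32 strains. BXD66 rose most, by 1.24, from 6.72 to 7.95. The arrays labelled DBA/2J fell by 0.67, and BXD45 went from 7.45 to 6.83. Col18a1 passed under 12 of 12 alternative settings, with a difference between 0.39 and 0.45 and an adjusted p between 0.000644 and 0.00734. In those with the mean of 12 smooth muscle markers or of 12 epithelial markers as a covariate, the difference was 0.40 and 0.41. Col15a1, which encodes the related multiplexin XV, differed by 0.13 (adjusted p = 0.559).

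**Figure D1:**
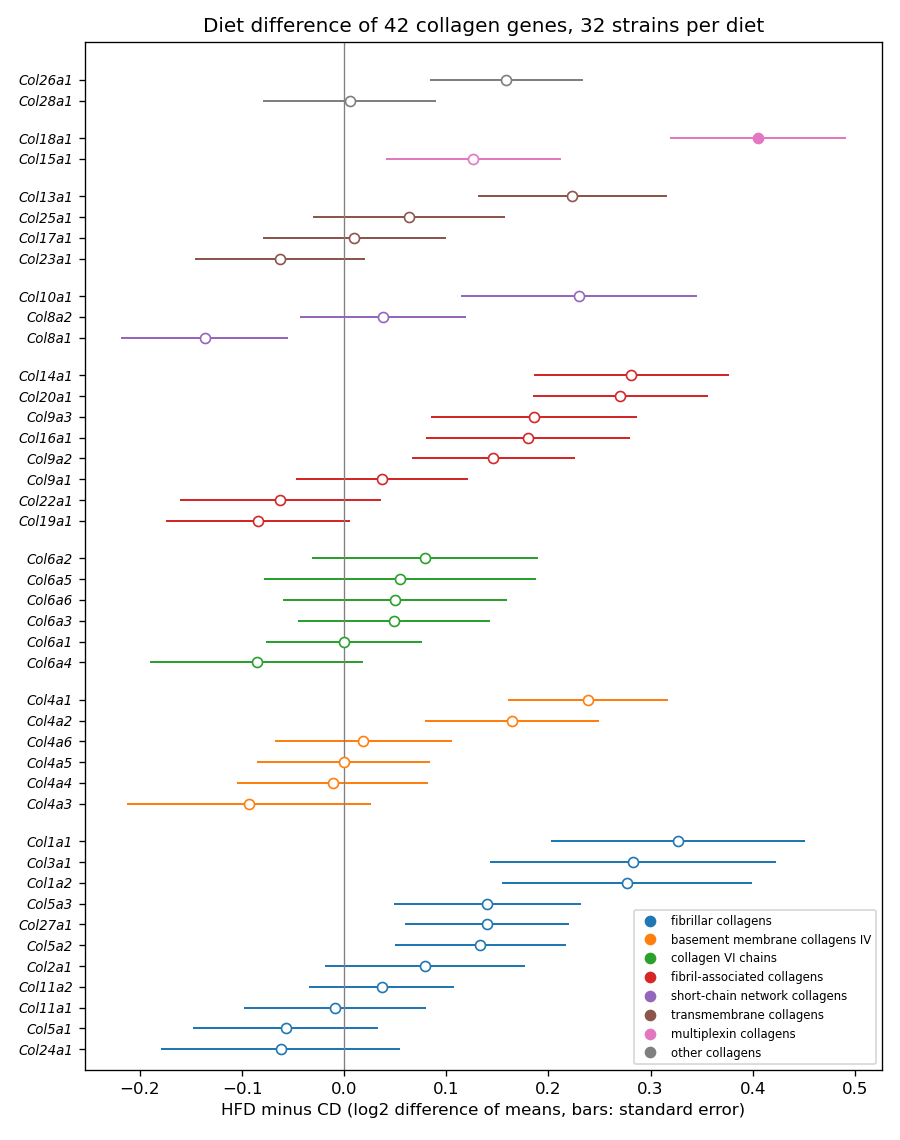
HFD minus CD on the log2 scale for the 42 collagen genes, grouped by class, with the standard error as bars (32 arrays per diet) and a filled point where the adjusted p was under 0.05. Col18a1 at 0.41 is the only filled point, and Col8a1 at -0.14 lies furthest to the left.

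The fibrillar collagens that make up most of the fibrous matrix, type I (Col1a1 and Col1a2) and type III (Col3a1), had the largest differences of their class without passing the adjusted test. Col1a1 ran from 7.56 through a median of 8.55 to 9.35 under CD and from 7.83 through 8.98 to 9.82 under HFD. The ranges overlapped over most of their length. Its difference was 0.33 (SE 0.124, adjusted p = 0.176), higher in 23 of 32 strains. With strain as a block, which compares the 2 arrays labelled with each strain, the adjusted p of Col1a1 was 0.0388, and Col1a1 and Col18a1 were then the 2 of 42 collagens called higher (1.39% of all genes), with 0 of 42 called lower (2.13% of all genes). The pairs of BXD87, BXD89, BXD90 and the parental strains did not match as the others did. The block was not run without them, and the counts of strains higher on HFD rest on the same pairs. Col1a2 went from a median of 9.67 to 9.91, a difference of 0.28 (SE 0.123, adjusted p = 0.278; 0.0710 with the strain block), higher in 25 of 32 strains. Col3a1 went from a median of 11.13 to 11.49, a difference of 0.28 (SE 0.140, adjusted p = 0.362), higher in 21 of 32 strains. Of the 11 fibrillar genes 8 had differences above 0, with a median of 0.13, and 3 of them (Col1a1, Col1a2 and Col3a1) had an unadjusted p under 0.05. At the other end were Col5a1, a chain of the collagen V that starts fibrils, at -0.06 and the minor fibrillar gene Col24a1 at -0.06.

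BXD81 had the largest rise of all strains in 6 of 42 collagens, which were Col1a1, Col1a2, Col3a1, Col4a1, Col5a1 and Col6a3. Its CD array is one of the 2 that stood apart. In that strain Col1a1 went from 8.27 to 9.53, Col1a2 from 8.62 to 10.23 and Col3a1 from 9.55 to 11.38. Without the arrays that stood apart the difference was 0.33 for Col1a1 (adjusted p = 0.170), 0.27 for Col1a2 (adjusted p = 0.282) and 0.27 for Col3a1 (adjusted p = 0.335).

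Col4a1 and Col4a2, which form the collagen IV found under most cell layers, differed by 0.24 (SE 0.079, adjusted p = 0.0964, higher in 24 of 32 strains) and 0.16 (SE 0.085, adjusted p = 0.394, higher in 20 of 32 strains). Col4a1 ran from 6.07 through 6.74 to 7.36 under CD and from 6.18 through 7.02 to 7.45 under HFD, with overlapping ranges. The other 4 collagen IV genes, whose products form more restricted networks such as that of the kidney glomerulus, lay between -0.09 (Col4a3) and 0.02 (Col4a6). No collagen IV gene passed the adjusted test. The median over the 6 collagen IV genes was 0.01. For the 6 collagen VI genes the median was 0.05, with a range from -0.09 to 0.08 and 0 of 6 at an unadjusted p under 0.05 in limma.

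Among the fibril-associated collagens, which sit on the surface of fibrils, Col20a1 ran from 6.66 through a median of 7.33 to 8.03 under CD and from 7.03 through 7.56 to 8.44 under HFD. Its difference was 0.27 (SE 0.086, adjusted p = 0.0776), higher in 24 of 32 strains. Col14a1, which is known from tendon and skin to regulate fibril thickness, differed by 0.28 (SE 0.096, adjusted p = 0.109), higher in 20 of 32 strains. Both passed in the 27 BXD strains whose CD and HFD arrays resembled each other most (adjusted p = 0.0479 and 0.0407), and Col20a1 also in the upper 60% of genes (adjusted p = 0.0480). Col9a3, a chain of the collagen IX best known from cartilage, differed by 0.19 (adjusted p = 0.426). The median of the 8 genes was 0.16, the range -0.08 to 0.28, and 6 of 8 were above 0.

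Of the transmembrane collagens, which span the cell membrane, Col13a1 differed by 0.22 (adjusted p = 0.233), Col25a1 by 0.06 and Col23a1 by -0.06, while Col17a1, the hemidesmosome collagen of epithelia, stood at 0.01. The short-chain collagens Col10a1, Col8a2 and Col8a1 differed by 0.23 (adjusted p = 0.370), 0.04 and -0.14 (adjusted p = 0.484). Col26a1 differed by 0.16 (adjusted p = 0.323) and Col28a1 by 0.01. In none of these 3 groups did a gene pass.

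**Figure D2:**
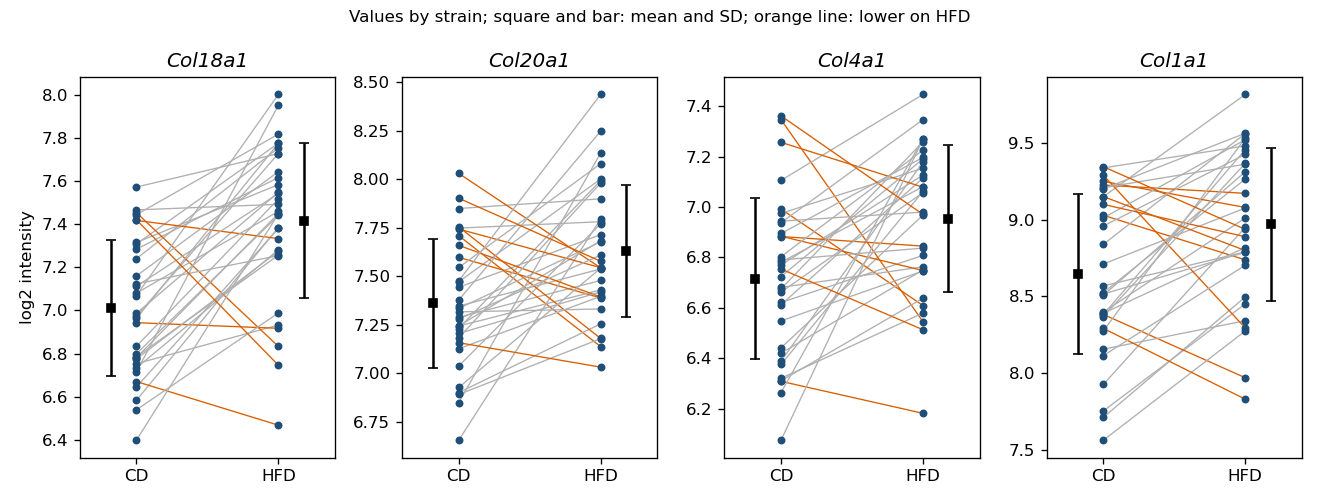
Log2 intensity of Col18a1, Col20a1, Col4a1 and Col1a1 under CD and HFD, with a line for each of 32 strains (orange where the level was lower on HFD) and the mean and SD as squares with bars. The level was higher on HFD in 27 strains for Col18a1, 24 for Col20a1, 24 for Col4a1 and 23 for Col1a1.

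Marker genes of other cell types were followed beside these differences, because in a bulk sample fewer cells of a type and less RNA per cell cannot be told apart. The mean of 12 smooth muscle markers ran from 12.29 to 13.84 under CD and from 12.24 to 13.81 under HFD, with means of 12.97 and 13.12, higher on HFD in 21 of 32 strains. All 12 of those genes had differences above 0, and 0 of 12 passed the adjusted test (2 of 12 at an unadjusted p under 0.05, against 13.6% of all genes). The mean of 12 epithelial markers ran from 15.90 to 17.03 under CD and from 15.97 to 16.83 under HFD, with means of 16.65 and 16.49, lower on HFD in 24 of 32 strains, with all 12 differences below 0 and 0 of 12 passing (2 of 12 at an unadjusted p under 0.05). With the strain block the carbonic anhydrase Car4 of this list passed (-0.77, adjusted p = 0.0207). After Car4 the largest falls were those of Slc26a3 (-0.39) and Aqp8 (-0.36), while Epcam (-0.04), Krt8 (-0.04) and Cdh1 (-0.01) changed little. The epithelial mean is thus not a measure of epithelial content alone, as a covariate either. The mean of 9 fibroblast markers was 7.42 under CD and 7.51 under HFD, and that of 8 endothelial markers 7.46 and 7.41. The mean of 6 markers of Paneth cells and ileum ran from 6.90 to 13.72 under CD and from 7.73 to 16.31 under HFD, with means of 8.39 and 9.22, higher on HFD in 24 of 32 strains, and the ileal bile acid binding protein Fabp6 rose by 2.32 (SE 0.534, adjusted p = 0.00641, higher in 28 of 32 strains). The mean of 6 adipocyte markers was 6.81 under CD and 6.90 under HFD, and Fabp4 of that list rose by 0.71 (SE 0.154, adjusted p = 0.0034, higher in 25 of 32 strains), while Cidec passed with the strain block (-0.44, adjusted p = 0.0635 without and 0.0103 with it). Without the 4 arrays rich in Defa24 the Col18a1 difference was 0.41 (adjusted p = 0.00239), and the part of the Fabp6 and Fabp4 differences in the collagen values was not tested. With the muscle or the epithelial mean as a covariate the Col1a1 difference went from 0.33 to 0.24 and 0.23 (adjusted p = 0.322 and 0.426), and the Col4a1 difference stayed between 0.20 and 0.27 over all alternatives.

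Genes that make, hold or cut collagen were counted in the same fit. Over all genes 2.18% passed the adjusted limma test in either direction, and 13.6% had an unadjusted p under 0.05. Of 26 genes for assembly and crosslinking, such as the chaperone Serpinh1 and the lysyl oxidase Lox, 0 passed for diet. An unadjusted p under 0.05 in limma was found for 4 of the 26, which is near the share of all genes. These were Pcolce, which enhances the trimming of procollagen, at 0.31 (adjusted p = 0.0872), the prolyl 3-hydroxylase P3h1 at 0.25 (adjusted p = 0.273), P4hb, the shared subunit of the prolyl 4-hydroxylases, at 0.22 (adjusted p = 0.274) and the prolyl hydroxylase P4ha2 at -0.25 (adjusted p = 0.363). Of 21 other genes of the fibrous matrix, 0 passed and 4 had an unadjusted p under 0.05. With the strain block the fibril-binding proteoglycans Lum (0.36, adjusted p = 0.0219) and Ogn (0.28, adjusted p = 0.0398) rose and the fibulin Fbln2 fell (-0.29, adjusted p = 0.0382). That block called 1.39% of all genes higher and 2.13% lower. Of 15 basement membrane partners (laminins, nidogens and the like), 8 receptors and 14 genes of collagen breakdown, 0 passed in each list, with 1, 2 and 3 at an unadjusted p under 0.05. With the strain block the epithelial matrix protease Mmp7 of the breakdown list, also a Paneth cell marker, passed (0.74, adjusted p = 0.0558 without and 0.0338 with it). Of 12 genes of TGF-beta signalling, a pathway known to raise collagen synthesis in fibroblasts, 1 rose, the receptor Tgfbr1 (0.36, SE 0.091, adjusted p = 0.0173, higher in 25 of 32 strains). Without the block 0.743% of all genes were called higher. The medians of the lists lay between 0.04 and 0.07.

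The next comparison asked whether the collagen level of a strain was alike under both diets. A limma F-test of strain with diet in the model called 4 of 42 collagens, against 6.38% of all genes, and 5 of 42 had an unadjusted p under 0.05, against 23.4% of all genes. The 4 were the type I genes Col1a1 and Col1a2, the type III gene Col3a1 and the collagen VI gene Col6a2, so that 3 of 11 fibrillar and 1 of 6 collagen VI genes passed, and 0 of the other 25.

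Col1a2 had the largest F (3.03, adjusted p = 0.0170), with an intraclass correlation of 0.50, that is the share of the variance found between strains once diet means were removed. Its strain means over both diets ran from 8.99 in BXD49 to 10.65 in BXD39. BXD49 was at 8.83 under CD and 9.15 under HFD, and BXD39 at 10.39 and 10.91. Both strains were picked as the lowest and highest by these same arrays, so that their separation is no check of a strain difference. The same holds for the extremes of the other genes below. The HFD arrays of BXD49 and BXD39 are also among those rich in Defa24. Col3a1 (F = 2.85, adjusted p = 0.0250, intraclass correlation 0.45) ran from 10.32 in BXD49 (10.42 and 10.23) to 12.33 in BXD27 (12.13 and 12.53). Col1a1 (F = 2.72, adjusted p = 0.0331, intraclass correlation 0.45) ran from 7.92 in BXD32 (7.56 and 8.27) to 9.48 in BXD27 (9.15 and 9.82). Col6a2 (F = 2.67, adjusted p = 0.0369, intraclass correlation 0.47) ran from 8.85 in BXD75 (8.42 and 9.27) to 10.44 in BXD27 (10.38 and 10.50). BXD27 was among the highest strains for all 4 genes, and BXD32 among the 5 lowest for all 4.

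None of these 4 calls remained without the 4 arrays rich in Defa24, which belong to BXD39, BXD48a, BXD49 and BXD69. Then 0 of 42 collagens were called (adjusted p between 0.0894 and 0.130 for the 4 genes in limma), while 762 of all genes were still called against 1245. With the smooth muscle mean as a covariate Col1a2 (adjusted p = 0.0322) and Col3a1 (0.00164) passed, and Col1a1 (0.123) and Col6a2 (0.0989) did not. With the epithelial mean Col1a2 (adjusted p = 0.0234) and Col3a1 (0.0148) passed, and Col1a1 (0.0693) and Col6a2 (0.0793) did not.

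Below the threshold came Col6a1, which is on the same chromosome as Col6a2 (F = 1.93, adjusted p = 0.151, intraclass correlation 0.45), and then Col5a1, Col17a1, Col6a3, Col24a1 and Col6a4, with adjusted p between 0.232 and 0.300. Over the 42 genes the median intraclass correlation was 0.07, against 0.13 over all genes. Col18a1, the gene that rose on HFD, had a strain adjusted p of 0.367, and Col4a1 one of 0.583. Of the assembly genes 3 of 26 differed between strains, among them the collagen galactosyltransferase Colgalt1 (adjusted p = 7.8e-05, intraclass correlation 0.70) and Serpinh1 (adjusted p = 0.0256), and of the other matrix genes 5 of 21, which were Fbln1, Fbln2, Tnc, Bgn and Mfap4, beside the 6.38% of all genes. The other lists had 1 gene each: Lamb2 of 15 basement membrane partners, Gp6 of 8 receptors, Mmp3 of 14 breakdown genes and Tgfbr2 of 12 genes of TGF-beta signalling.

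**Figure D3:**
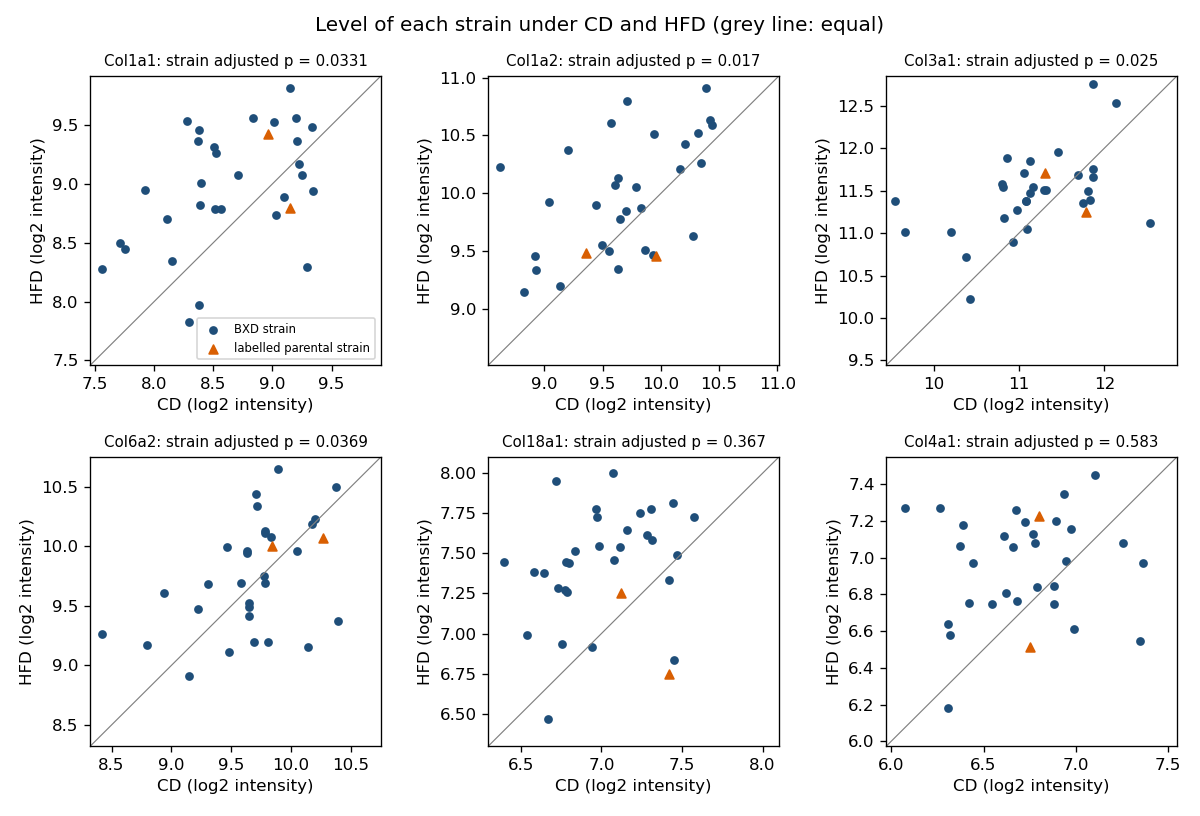
Level of each of 32 strains under CD (horizontal) and HFD (vertical) in log2 intensity for 6 collagens, with the line of equal levels in grey and the arrays labelled as parental strains as triangles. Points of Col1a1, Col1a2, Col3a1 and Col6a2 spread along the line. Points above the line number 27 of 32 for Col18a1, 25 for Col1a2, 24 for Col4a1, 23 for Col1a1, 21 for Col3a1 and 19 for Col6a2.

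The arrays labelled as parental strains were compared with the BXD strains on the means over both diets. No collagen passed: 0 of 42 passed in limma against 0.713% of all genes, with 1 at an unadjusted p under 0.05. That gene was Col5a1, with 4.80 for C57BL/6J and 5.24 for DBA/2J against 3.81 to 4.87 in the 30 BXD strains (difference 0.52, SE 0.196, adjusted p = 0.251). Its probeset is dim, with a mean intensity above that of only 12.8% of genes. For the difference in the change from CD to HFD between parental and BXD strains, limma called 0 of 42 collagens (0% of all genes), with 1 of 42, Col18a1, at an unadjusted p under 0.05 (difference of changes -0.72, SE 0.306, adjusted p = 0.996). These comparisons hold 2 parental strains whose labels are in doubt, as given above.

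Co-variation of the collagen genes was described over the 64 arrays after the diet means were removed. The 861 pairs had a median r of 0.07, and 15 pairs exceeded 0.5. These are descriptions with no test, since arrays of one strain and genes on one array are not independent. The highest were Col1a1 with Col6a2 (0.67), Col1a1 with Col1a2 (0.64), Col1a2 with Col3a1 (0.62) and Col1a2 with Col6a2 (0.62). Of the 15 pairs 10 lay among 6 genes, chosen after the values were seen: Col1a1, Col1a2, Col3a1, Col5a1, Col6a1 and Col6a2. A second set of pairs linked the fibril-associated Col16a1 with the transmembrane genes Col25a1 (0.61) and Col13a1 (0.58). Col20a1 and Col9a3, both fibril-associated, had an r of 0.56. By class the median r was 0.05 within fibrillar pairs, 0.05 within collagen IV pairs and 0.08 within collagen VI pairs. The lowest r was that of Col4a6 with Col5a3 (-0.35). Some pairs differed by diet in value, such as Col20a1 with Col24a1 (0.75 under CD and 0.10 under HFD), and that difference was not tested.

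**Figure D4:**
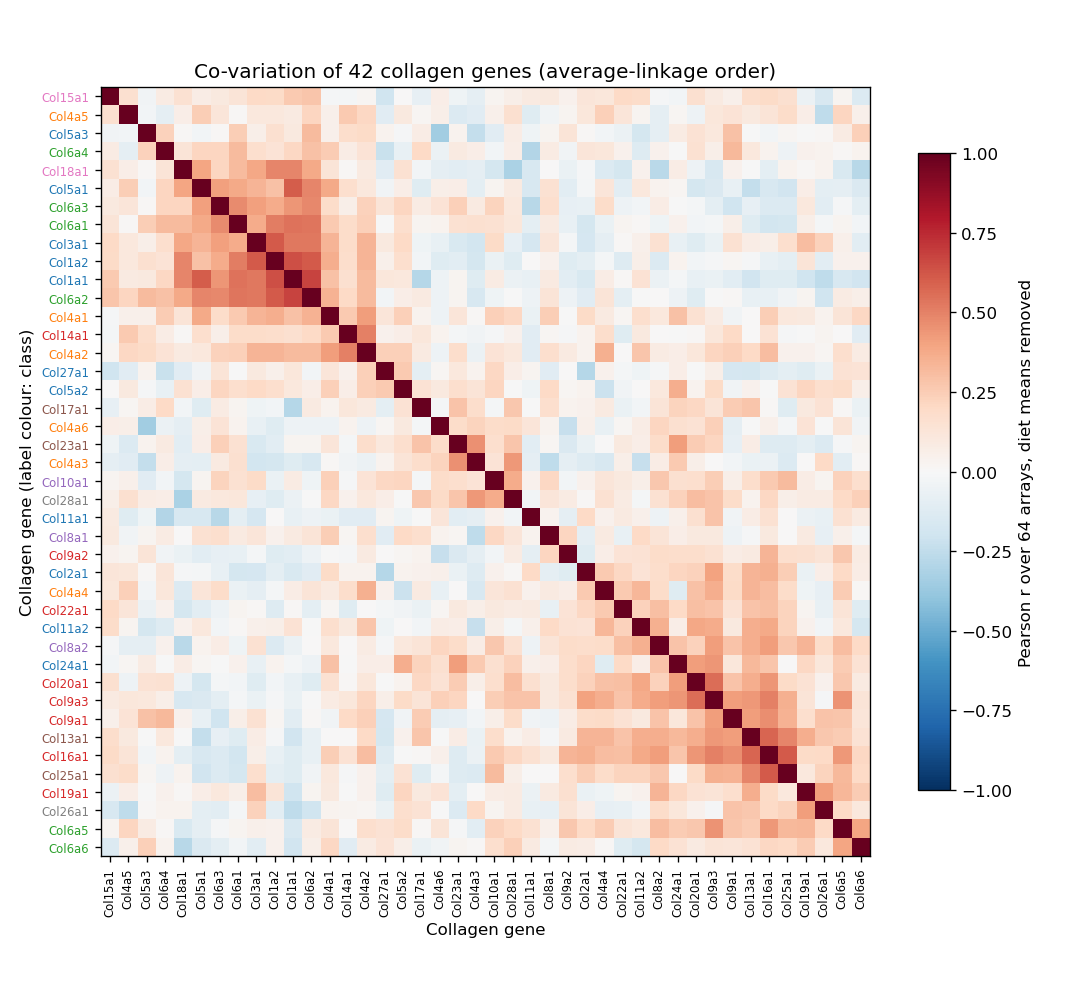
Pearson r between the 42 collagen genes over 64 arrays with diet means removed, in average-linkage order, with label colours for the classes. A block from Col18a1 to Col6a2 holds the type I and III chains and some of the collagen VI chains. The collagen VI genes Col6a5 and Col6a6 had r of only 0.08 and 0.06 with Col6a2. A looser block at the lower right holds Col16a1, Col13a1, Col25a1 and Col9a3.

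For 22 pairs the correlation over the 32 strains was tested within each diet by permutation (100000 resamples, 2-sided), and the p-values were adjusted over the 44 tests. Of the 44 tests of r, 13 passed. Pairs whose chains join in 1 molecule came first. Col1a1 and Col1a2 correlated under CD (r = 0.75, rho = 0.77, permutation p = 1e-05, the smallest these resamples can give, adjusted p = 0.00022 for r and 0.00044 for rho) and under HFD (r = 0.53, rho = 0.55, permutation adjusted p = 0.00911 for r and 0.00820 for rho), and r without the 2 strains farthest from the median was 0.75 and 0.60. Col6a1 and Col6a2 correlated under CD (r = 0.55, rho = 0.47, permutation adjusted p = 0.0066 for r and 0.0248 for rho) and HFD (r = 0.52, rho = 0.52, permutation adjusted p = 0.00911 for r and 0.0116 for rho), with r of 0.47 and 0.42 without 2 strains. Col6a1 and Col6a3 passed under CD (r = 0.57, rho = 0.56, permutation adjusted p = 0.0066 for r and 0.00820 for rho) and not under HFD (r = 0.37, rho = 0.41, permutation adjusted p = 0.0864 for r and 0.0602 for rho).

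Col4a1 and Col4a2 correlated under CD (r = 0.47, rho = 0.51, permutation adjusted p = 0.0242 for r and 0.0116 for rho; r = 0.40 without 2 strains) and did not pass under HFD (r = 0.37, rho = 0.27, permutation adjusted p = 0.0849 for r and 0.249 for rho; r = 0.22 without 2 strains). Col4a3 with Col4a4, the pair of the glomerular network, had r of 0.08 under CD and -0.32 under HFD (rho = 0.12 and -0.36, permutation adjusted p = 0.733 and 0.136 for r and 0.576 and 0.101 for rho). Col4a5 with Col4a6 had r of 0.24 and -0.15, Col5a1 with Col5a2 0.18 and -0.02, Col8a1 with Col8a2 0.09 and 0.18, and Col9a2 with Col9a3 0.38 and -0.16, none of which passed (permutation adjusted p between 0.0849 and 0.925 for r). Their rho lay between -0.15 and 0.41, with permutation adjusted p between 0.0602 and 0.816. Of the 9 pairs of chains of one molecule, 2 passed under both diets. That a pair passed under one diet and not under the other does not show a difference between diets, which was not tested.

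Between classes, Col1a1 and Col6a1 passed under both diets (r = 0.53 and 0.55, rho = 0.55 and 0.60, permutation adjusted p = 0.00911 and 0.0066 for r and 0.00820 and 0.00616 for rho, r = 0.55 and 0.53 without 2 strains). Within the fibrillar class, Col1a1 and Col3a1 passed under CD (r = 0.69, rho = 0.65, permutation adjusted p = 0.00022 for r and 0.00242 for rho, r = 0.67 without 2 strains) and not under HFD (r = 0.31, rho = 0.16, permutation adjusted p = 0.153 for r and 0.524 for rho, r = 0.47 without 2 strains). Col1a1 and the collagen-binding protein Sparc passed under both (r = 0.49 and 0.55, rho = 0.53 and 0.55, permutation adjusted p = 0.0161 and 0.00748 for r and 0.00997 and 0.00820 for rho, r = 0.42 and 0.50 without 2 strains). Col1a1 with Col4a1, Col14a1 and Col17a1, with r between -0.30 and 0.36, did not pass under either diet, nor did Col1a1 with Serpinh1 (r = 0.41 and 0.29, rho = 0.42 and 0.30, permutation adjusted p = 0.0545 and 0.174 for r and 0.0564 and 0.184 for rho). Col4a1 with the laminin chain Lamc1 had r = 0.22 under CD and 0.45 under HFD (rho = 0.26 and 0.42, permutation adjusted p = 0.342 and 0.0296 for r and 0.251 and 0.0591 for rho, r = 0.36 under HFD without 2 strains). With the smooth muscle gene Myh11, Col1a1 had r = 0.58 under CD (rho = 0.58, permutation adjusted p = 0.0066 for r and 0.00616 for rho; r = 0.48 without 2 strains) and 0.42 under HFD (rho = 0.39, permutation adjusted p = 0.0545 for r and 0.0748 for rho). With the epithelial gene Epcam it had r of -0.05 and -0.01.

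The markers of other cell types moved with some collagens across the arrays. Over 64 arrays with diet means removed, and as a description, Col1a1 had r of 0.47 with the smooth muscle mean, 0.50 with the endothelial, 0.36 with the fibroblast and -0.26 with the epithelial mean. Its largest r with any of the 10 marker lists was 0.58, with the mean of 3 markers of the interstitial cells of Cajal, the pacemaker cells of the gut wall, for which Col5a1 had 0.54. Col6a2 had 0.47 with smooth muscle, 0.60 with endothelium, 0.44 with fibroblasts, -0.29 with epithelium and 0.46 with the interstitial cells. Col1a2 and Col3a1 had 0.17 and 0.24 with smooth muscle. Col18a1 had 0.06 with smooth muscle and 0.43 with endothelium, and the second set lay on the other side, with Col13a1 at -0.34 and -0.30 and Col16a1 at -0.19 and -0.30. The part of cell makeup in the strain differences was not tested beyond the covariate fits above.

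**Figure D5:**
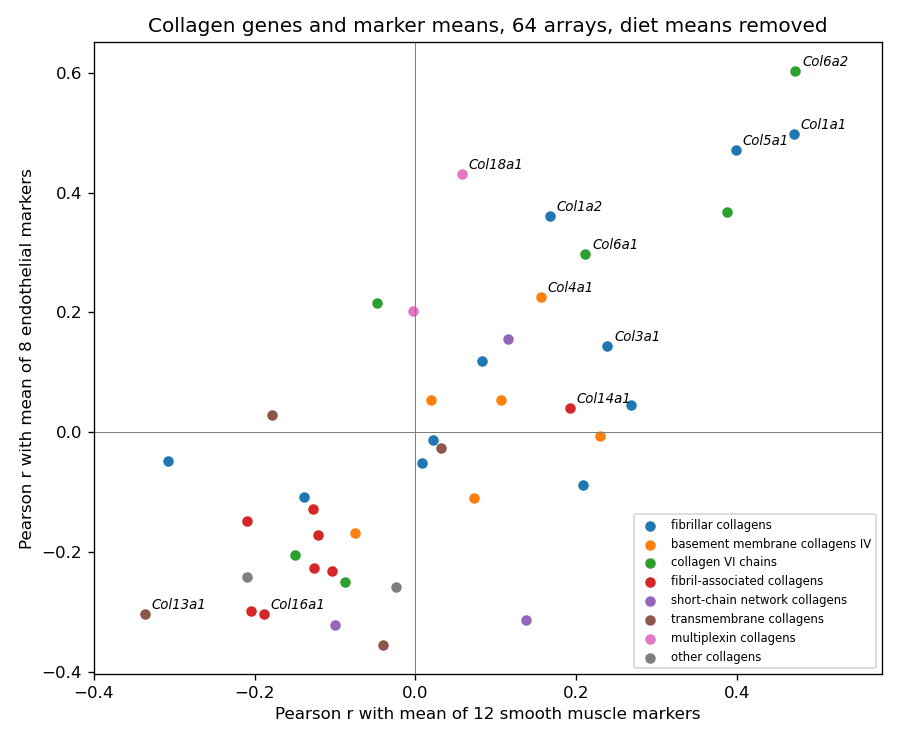
Pearson r of each collagen with the mean of 12 smooth muscle markers (horizontal) and of 8 endothelial markers (vertical) over 64 arrays with diet means removed, coloured by class. Col6a2 at 0.47 and 0.60 and Col1a1 at 0.47 and 0.50 lie at the upper right, and Col13a1 at -0.34 and -0.30 at the lower left.

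Among genes outside the collagens, those most like Col1a1 over the 64 arrays were Ltbp1 (r = 0.71), which holds latent TGF-beta in the matrix, the Wnt co-receptor Lrp6 (0.70), Heg1 (0.69), the laminin chain Lamb2 (0.69), fibronectin Fn1 (0.68), Fryl (0.68), Ptprg (0.67) and Dync1h1 (0.65). For Col4a1 the highest were Lce3e (0.53) and Scrib (0.52) and for Col17a1 Rmc1 (0.52) and Cyb5r1 (0.50), lower values than those around Col1a1.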

How the data were processed

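Log2 intensities of 64 arrays were used as the authors deposited them. Per the methods, these were made by probeset summarisation with Affymetrix Power Tools, a GC-aware RMA, and probes over sites that vary between the BXD lines were dropped, though whether the deposited log2 values include that step is not given in the sources used here. Of 22199 probesets, 19570 have 1 gene symbol and 2629 have none here. The median was taken for the 55 genes with several probesets, leaving 19503 genes. There were 0 sample columns left unused.

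HFD was compared with CD in limma 3.58.1 (R 4.3.3) over all genes with Benjamini-Hochberg adjustment and a threshold of 0.05. Strain was tested by an F-test with diet in the model. CD and HFD arrays labelled with the same inbred strain form a pair, so strain was also a replicate block. The deviations of a pair from the diet means correlated above 0.1 in 22 of 32 strains (median 0.206). Permutation tests used Python 3.11.15 with scipy 1.17.1, numpy 2.4.6, pandas 2.3.3 and matplotlib 3.10.9. Per the study, its mice came from several litters. No pool of a strain and diet was repeated, so that no p-value measures the spread between such pools. The diet fit without the block sets the difference against the spread between strains. The strain F-test and the block set theirs against the spread within strains. In that spread, a diet response that differs between strains cannot be told apart from noise.

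Named genes are the collagens past 0.05 in either diet fit, the 3 smallest diet p in each class, the 10 smallest strain p, the 5 largest spreads over strain means, the tested pairs, called genes of the other lists (at most 4) and the 8 genes most like Col1a1, Col4a1 and Col17a1; others were named after their values were seen. The members and lists were chosen with earlier results of these data known. The fits were tested on simulated data with 19503 genes. A log2 diet change of 0.5 was recovered in 86% and a change of 1 in 98% of 100 changed genes each, with 8 calls among unchanged genes, and strain differences with an SD 2 times that of the residual in 99%, with 11 such calls. Smaller strain differences, such as the intraclass correlations near 0.50 reported here, were not simulated. Diet changes under 0.5 were not simulated either, and the largest collagen difference was 0.41. How often changes of the size seen in the collagens would be recovered is thus unknown. Alternatives were array centring, quantile normalisation, a filter to the upper 60% of genes, the mean over probesets, a mean-variance trend, 30 or 27 BXD strains, leaving out arrays rich in Defa24 or standing apart, muscle or epithelial covariates and the block. The number of arrays limits precision.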

Additional observations from a re-analysis of the deposited data

How the results depend on the processing

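The count of collagens differing between diets, 1 as reported, was 2 in the upper 60% of genes, 3 in the 27 BXD strains without BXD87, BXD89 and BXD90 and 2 with strain as a replicate block, and 1 under the other 9 alternatives. The count over all genes, 426 as reported, was 560, 857 and 687 under those 3. The count of collagens differing between strains, 4 as reported, was 2 with quantile normalisation, 0 without the arrays rich in Defa24, 2 with the smooth muscle mean and 2 with the epithelial mean as a covariate. The Defa24 setting has 60 arrays and leaves 4 strains with 1 array each. Over all genes the strain count was 1245 as reported and 762 without those arrays. Col6a2 was not called in 30 BXD strains (adjusted p = 0.0515) or 27 (0.0791), nor with quantile normalisation (0.0617), which also took Col3a1 to 0.0525. The parental count was 0 throughout, with 139 genes in all and 28 with the muscle covariate. No direction turned among called collagens. The strain block changed no other collagen call than that of Col1a1. No background level was given, so that how far the dim probesets lie above it is unknown.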
